A study of Mus musculus with 6 samples.

Results

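The HoxD cluster holds 9 Hoxd genes in a row, from Hoxd13 to Hoxd1, with the related homeobox gene Evx2 next to Hoxd13. These 10 genes, chosen by name, are 10 of 21701 protein-coding genes of unique symbol in the GENCODE vM21 annotation. They span chr2:74652991-74765142 of the mm10 build, 112 kb in all. Evx2 lies on the minus strand and the Hoxd genes on the plus strand. The annotated bodies of Hoxd4 (chr2:74711929-74729160) and Hoxd3 (chr2:74711927-74748442) overlap, because long transcripts of both start at the same place, so regions there were assigned to both.

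The data were peak lists from ChIP-seq of wild-type mouse forelimb buds of the strain labelled B6CBAF1, cut into a distal piece (DFL, the future hand) and a proximal piece (PFL, the future arm). The sample titles give embryonic day E12, and the series design gives E12.5. H3K27ac, H3K27me3 and CTCF were profiled in DFL and in PFL with 1 library each, so no spread between animals was measured and no p-value was computed. Lists for the transcription factors HOXA13 and HOXD13 came from wild-type whole forelimb buds of an earlier stage, labelled E11. They belong to no sample of the series and were used to place binding and to set the levels of both factors side by side. The libraries were reanalysed from earlier publications, and each ChIP was done once on a pool of tissue according to the study. The study gives a number of pooled embryos for ChIP-seq, but whether it holds for these reanalysed libraries is not clear.

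Hoxd genes encode transcription factors that pattern the body axis and the limbs. In the limb bud they respond to enhancers on both sides of the cluster: the landscape beyond Evx2 serves the digits, and the landscape beyond Hoxd1 serves the upper arm and forearm. H3K27ac marks active promoters and enhancers, H3K27me3 is the mark of the Polycomb repressive complex PRC2, and CTCF is a zinc finger protein that halts cohesin at the bases of chromatin loops, in a manner that depends on the direction of its motif.

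A peak in these lists is a stretch that rises above its own surroundings, and the deposited fold is measured against that local background. In a gene cluster marked from end to end the surroundings are high and the fold is low. From that fold and the −log10 p beside it, the number of fragments overlapping each summit (the pileup) and the local background were therefore worked back. Both were divided by the smallest background found in their list. The result for the pileup is called the level of the summit and that for the local background its surroundings. The divisors, which grow with depth and fragment length, were 12.49 and 11.9 fragments for H3K27ac in DFL and PFL, 3.06 and 4.75 for H3K27me3, 6.47 and 7.31 for CTCF, 6.10 for HOXA13 and 7.71 for HOXD13. Intervals are exact Poisson 95% intervals of the counts and cover counting error only. The lists held between 9083 regions (DFL H3K27me3) and 69503 (PFL H3K27ac). Between the ends of the cluster they placed 22 regions of H3K27ac in DFL and 20 in PFL, 13 and 22 of H3K27me3, 10 and 9 of CTCF, 21 of HOXA13 and 21 of HOXD13.

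Promoters of marker genes set the pieces apart only in part. All 5 distal limb genes (Hoxa13, Hoxd13, Msx1, Msx2 and Tfap2b) carried H3K27ac in DFL and in PFL, and H3K27me3 lay on 0 of them in DFL and on 3 in PFL (Hoxd13, Msx2 and Tfap2b). Of 4 proximal limb genes (Meis1, Meis2, Shox2 and Pkdcc), 3 carried H3K27ac in DFL and 4 in PFL, Pkdcc being the difference. H3K27me3 lay on 3 of these genes in DFL and on all 4 in PFL, Meis1 being the difference. Of 4 muscle genes, 0 carried H3K27ac in DFL and 3 in PFL (Myod1, Myf5 and Myog), while Pax3 had it in neither. The part of muscle cells in the values of the HoxD genes was not tested. In pieces of mixed cells, fewer cells carrying a mark and less of it per cell cannot be told apart.

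H3K27ac was spread differently along the cluster in the distal and proximal pieces. In DFL its highest summit lay over Evx2, the gene nearest the digit enhancers. DFL levels stayed high to Hoxd12, with 27.8 and 27.9 there, and fell away from Hoxd11 to Hoxd9. Levels near the highest pileup of a single-read list are compressed, so their order from Evx2 to Hoxd12 cannot be read. In PFL H3K27ac was low over Evx2 and Hoxd13, highest between Hoxd11 and Hoxd10, and reached on to Hoxd8 and the upstream start of Hoxd3. Levels of DFL and PFL were nearly equal at the start of Hoxd11, with the higher level in DFL at pairs of summits on the Evx2 side of it and in PFL on the Hoxd1 side. Where exactly the levels cross depends on the scaling: with each list scaled by the median pileup of its paired summits instead, 2 of the 26 pairs, both between Hoxd11 and Hoxd10, turned to a higher level in DFL.

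Evx2 (chr2:74652991-74659557), a homeobox gene related to even-skipped of Drosophila, had 9 DFL summits with pileups of 265 to 377 fragments, levels of 21.2 to 30.2. Its 5 PFL summits had pileups of 73 to 99, levels of 6.15 to 8.33. The ranges did not overlap. The highest DFL summit of the cluster, 377 fragments (95% interval of the level 27.2 to 33.4), lay in the Evx2 intron 614 bp from the nearest start of the gene, and only 47 of 82136 DFL summits of the genome reached as high. The strongest pileup anywhere in that list was 394. Only 1 read was kept per position and strand, which bounds the pileup a summit can reach.

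Over Evx2 the surroundings differed more than the summits, and stood at 16.3 to 20.3 in DFL and at 3.08 to 3.12 in PFL. The part of the limit on summit pileups in this contrast was not tested. Of all DFL summits of the genome, 0.0268% had surroundings as high as the highest of the cluster, 20.3.

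Summits of DFL and PFL within 250 bp of each other were paired, which gave 26 pairs in the cluster and 56603 in the genome. Just upstream of the Evx2 start a DFL summit of 350 fragments, 315 bp away, paired with a PFL summit of 64 fragments, 244 bp away. The level was 28.0 in DFL and 5.39 in PFL, a DFL over PFL ratio of 5.20 (95% interval 3.97 to 6.90). This was the second highest ratio of all pairs in the genome. The third highest, 5.04 (3.85 to 6.69), was also in the cluster, 869 bp upstream of Hoxd13, where DFL had 339 fragments and PFL 64. The 5 pairs on the body of Evx2 had ratios of 3.37 to 4.73.

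Hoxd13 (chr2:74668310-74671599), which acts in digit formation, had DFL pileups of 294, 323 and 331 at its 3 summits, levels of 23.5 to 26.5. PFL pileups at its 4 summits were 113 to 131, levels of 9.51 to 11.0. The 3 pairs gave ratios of 2.34 to 2.60 in favour of DFL, and the surroundings were 4.63 to 4.80 times higher in DFL. The deposited folds run the other way, 1.36 to 1.61 in DFL against 2.52 to 3.07 in PFL, because the DFL summits stand on the higher surroundings.

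Hoxd12 (chr2:74675013-74677705) had DFL summits of 347 and 349 fragments and PFL summits of 201 and 205, with ratios of 1.61 and 1.65. All 12 pairs from Evx2 to Hoxd12 had a level at least 1.5 times higher in DFL, with a median ratio of 3.49. Over the genome 5.30% of pairs passed that fold, and the median ratio of all pairs was 0.896. The 12 pairs of the stretch lie in 4 PFL regions, so neighbouring pairs are not independent.

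Hoxd11 (chr2:74679557-74687016), a gene of both forearm and digits, had levels closer to each other in DFL and PFL than Hoxd12 had. Its 4 DFL summits had levels of 22.7 to 25.3 and its 8 PFL summits 17.8 to 23.7, so the ranges overlapped. Ratios of its 4 pairs were 1.27, 1.22, 1.29 and, at the start of its basic transcript, 1.004 (0.847 to 1.19), with 284 fragments in DFL and 269 in PFL. The pair between Hoxd12 and Hoxd11 had a ratio of 1.47. With median scaling the pair at the Hoxd11 start had 1.14.

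Between Hoxd11 and Hoxd10 the 5 PFL summits had the highest H3K27ac levels of that piece in the cluster, 25.3 to 27.6, while the 8 DFL summits lay at 19.4 to 25.2. The 4 pairs had ratios of 0.811 to 0.919, or 0.920 to 1.04 with median scaling. On Hoxd10 (chr2:74691924-74695105), a gene of the forearm domain, the DFL summit had 200 fragments and the paired PFL summit 291, a ratio of 0.654 (0.543 to 0.785). The promoter window of Hoxd10 nevertheless held regions in both pieces.

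Hoxd9 (chr2:74697727-74700208), also active in the forearm and upper arm, had DFL summits of 174 and 144 fragments, against PFL summits of 226, 236 and 233. Levels were 11.5 to 13.9 in DFL and 19.02 to 19.9 in PFL, with no overlap. The surroundings were 4.29 to 4.73 in DFL and 10.02 to 11.9 in PFL. Of the 12 pairs from Hoxd11 to Hoxd8, 3 were at or under the inverse of 1.5, all of them on Hoxd10, just before Hoxd9 or on Hoxd9. The genome had 13.9% of pairs there. With median scaling only the lowest of the 3, on Hoxd9, stayed past that fold, at 0.658.

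On Hoxd8 (chr2:74704615-74707933) H3K27ac regions were listed in PFL alone, with 6 summits of 106 to 190 fragments and levels of 8.92 to 16.0. The upstream start of Hoxd3, where Hoxd4 transcripts and the antisense transcript Hoxd3os1 also lie, was marked in both pieces, with 36 fragments in DFL and 149 in PFL. Levels were 2.88 in DFL and 12.54 in PFL, a ratio of 0.230 (0.155 to 0.333). It was the ninth lowest of the 56603 ratios of the genome. Beyond it, PFL had 2 weak regions in the noncoding gene Haglr, with 28 and 36 fragments, and DFL had none. No region of H3K27ac lay on Hoxd1 (chr2:74762980-74765142) in either piece.

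**Figure D1:**
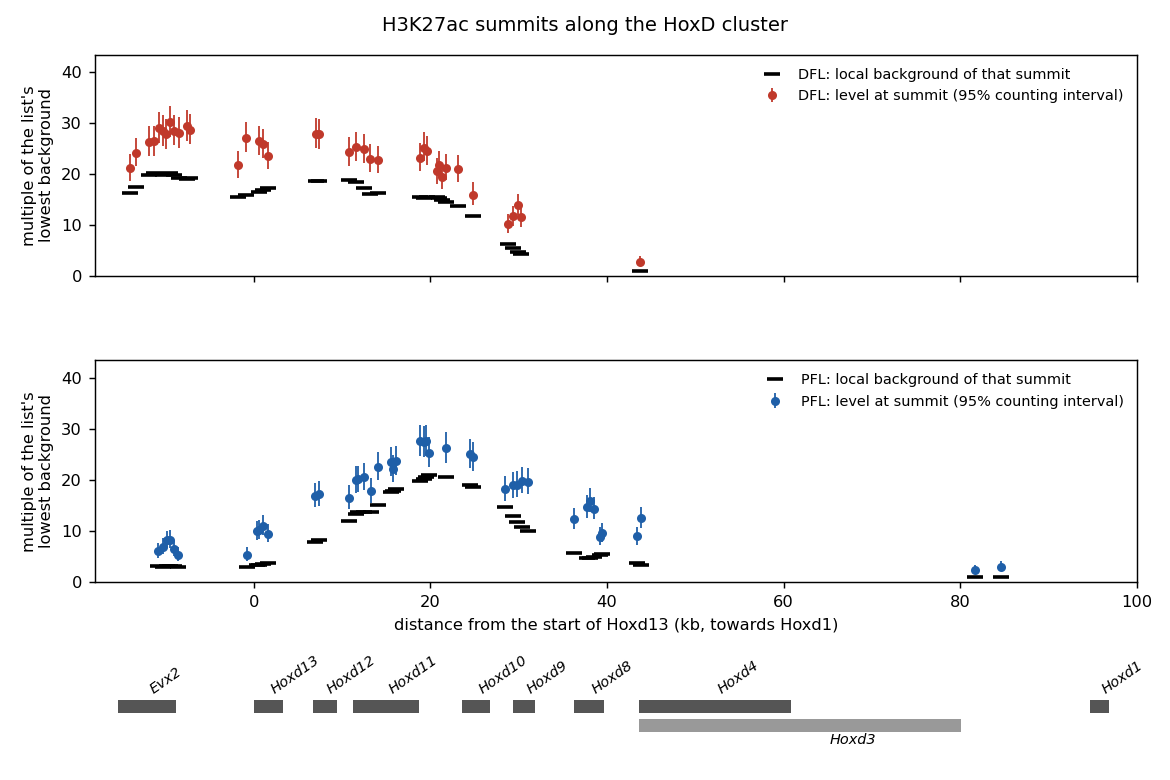
H3K27ac summits along the HoxD cluster in DFL (top) and PFL (bottom), by distance from the start of Hoxd13 in kb, with gene bodies below. Coloured points are summit levels with 95% counting intervals and black dashes the surroundings of the same summits, both in units of each list's smallest background. DFL levels are 21.2 or more from Evx2 to Hoxd12, and PFL levels there are 17.3 or less.

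Counted by promoter, with a window of 2 kb around the start of any basic transcript, H3K27ac lay on 7 of the 10 genes in DFL and on 8 in PFL, against 59.2% and 61.6% of all protein-coding genes. The gene added in PFL was Hoxd8, and 3.59% of all genes had the mark in PFL alone. None of the 10 had it in DFL alone, as did 1.16% of all genes. Hoxd4 and Hoxd1 had it in neither piece. The long Hoxd4 transcripts that start beside Hoxd3 are not basic ones, so the marked region there counted for Hoxd3 alone. Promoter counts do not show the gradient, since 7 genes are counted in both pieces whatever their level.

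**Figure D2:**
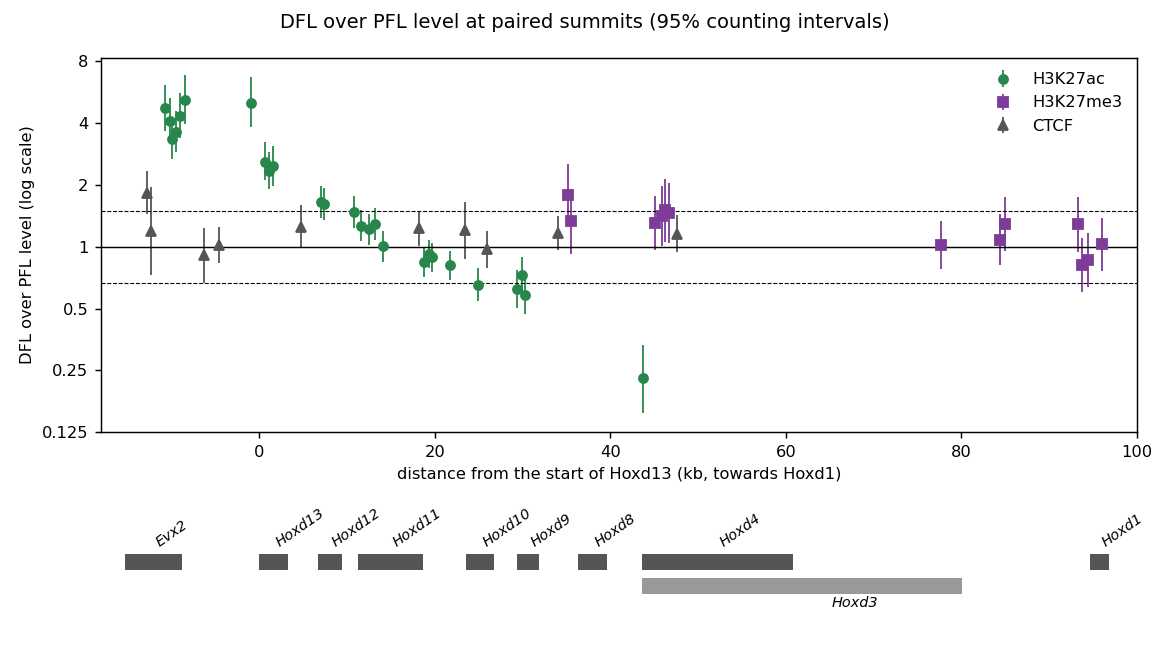
DFL over PFL level at summits of both lists within 250 bp of each other, on a log scale, by distance from the start of Hoxd13 in kb, with 95% counting intervals. Dashed lines mark 1.5 and its inverse. H3K27ac ratios (circles) reach 5.20 at Evx2 and 0.230 at the upstream start of Hoxd3, while 9 of 10 CTCF ratios (triangles) and 11 of 13 H3K27me3 ratios (squares) lie between the dashed lines.

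H3K27me3 had regions from Evx2 to Hoxd12 in PFL alone, and from Hoxd8 to Hoxd1 in both pieces. From Hoxd11 to Hoxd9 neither piece had a region. The longest stretch without one in PFL measured 23.9 kb (chr2:74679387-74703297), and it held the whole bodies of Hoxd11, Hoxd10 and Hoxd9 and 4 CTCF sites. It is the stretch in which PFL H3K27ac was highest.

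In PFL the strongest H3K27me3 summit on the digit side lay in the UTR of Evx2, with 153 fragments, a level of 32.2 and surroundings of 20.05. Pileups were 133 to 147 between Evx2 and Hoxd13, 106 on Hoxd13, 98 on Hoxd12 and 91 to 95 between Hoxd12 and Hoxd11. Levels thus ran from 32.2 at Evx2 to 19.2 before Hoxd11, and the surroundings from 20.05 to 12.2. DFL had no region over this stretch. The list gives no value where there is no region, and the DFL list had the smaller divisor, so the DFL level there cannot be read from it. When the PFL list was shortened to the size of the DFL list, it still had regions there.

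The PFL H3K27me3 summits of this stretch stood on the places where DFL had its H3K27ac summits. Of the 8 PFL H3K27me3 summits from Evx2 to Hoxd12, 7 lay within 100 bp of a DFL H3K27ac summit, at distances of 11, 39, 72, 63, 43, 49 and 34 bp. The eighth, between Hoxd13 and Hoxd12, was 947 bp away. Over the genome 3.44% of PFL H3K27me3 summits had a DFL H3K27ac summit that near, and 4.77% had a PFL H3K27ac summit that near. In this stretch 1 of 8, on Hoxd13, had a PFL H3K27ac summit within 100 bp, and another 2 had one just farther off, at 108 and 110 bp. The distance of 100 bp was set after these values had been seen, and the 19 DFL summits put 15.5% of the bases of the stretch within that distance. Whether sequence or shearing at these places adds to both signals was not tested.

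On the other side of the cluster both pieces carried the mark. Of 2 pairs between Hoxd9 and Hoxd8, 1 had a level at least 1.5 times higher in DFL. Between Hoxd9 and Hoxd8 DFL had 3 summits of 60 to 75 fragments and PFL 2 of 65 and 70. After scaling these are levels of 19.6 to 24.5 in DFL and 13.7 to 14.7 in PFL. The pair farther from Hoxd8 had a ratio of 1.79 (1.26 to 2.53) and the nearer pair 1.33 (0.924 to 1.90), whose interval includes 1. In an intron shared by long Hoxd3 and Hoxd4 transcripts, 4 pairs had ratios of 1.31 to 1.503. Only the interval of the lowest of the 4, 0.964 to 1.78, includes 1. Surroundings there were 11.9 to 12.2 in DFL, against 7.86 to 8.54 in PFL.

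Farther on, levels at summits called in both pieces were alike within counting error. Near the far end of Hoxd3 the ratio was 1.02 (0.778 to 1.34), with 93 fragments in DFL and 141 in PFL. On Hoxd1, an anterior gene, it was 1.03 (0.764 to 1.38), with 79 and 119 fragments, and the surroundings were 10.4 in DFL and 9.94 to 9.99 in PFL. Between Hoxd3 and Hoxd1 the 5 pairs had ratios of 0.816 to 1.296, and each interval includes 1. Of all 13 pairs, 2 were at or above 1.5 and 0 at or under its inverse, against 4.74% and 7.31% of 11341 pairs of the genome. With median scaling 4 were at or above 1.5. Of the 14 PFL regions after the gap, 5 overlapped no DFL region, and of the 13 DFL regions 3 overlapped no PFL region. The highest PFL summit of the cluster, 161 fragments at a level of 33.9, lay in Hoxd3 242 bp from its nearest annotated start, where DFL had no region.

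Promoters with H3K27me3 numbered 4 of 10 in DFL (Hoxd8, Hoxd4, Hoxd3 and Hoxd1) and 7 in PFL, which added Evx2, Hoxd13 and Hoxd12, against 16.6% and 20.2% of all protein-coding genes. The order depends on the strength required of a region: at a fold of at least 2 there were 3 in DFL and 2 in PFL. With lists of equal size there were 4 in DFL and 5 in PFL, and the same with −log10 q of at least 5. The mark in PFL alone on 3 of 10 compares with 4.01% of all genes, and in DFL alone on 0 of 10 with 0.475%. In PFL 5 promoters, of Evx2, Hoxd13, Hoxd12, Hoxd8 and Hoxd3, had regions of both marks, and in DFL 1 had, of Hoxd3, against 12.8% and 8.84% of all genes. Whether the marks share cells in PFL cannot be told from a mixed piece.

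**Figure D3:**
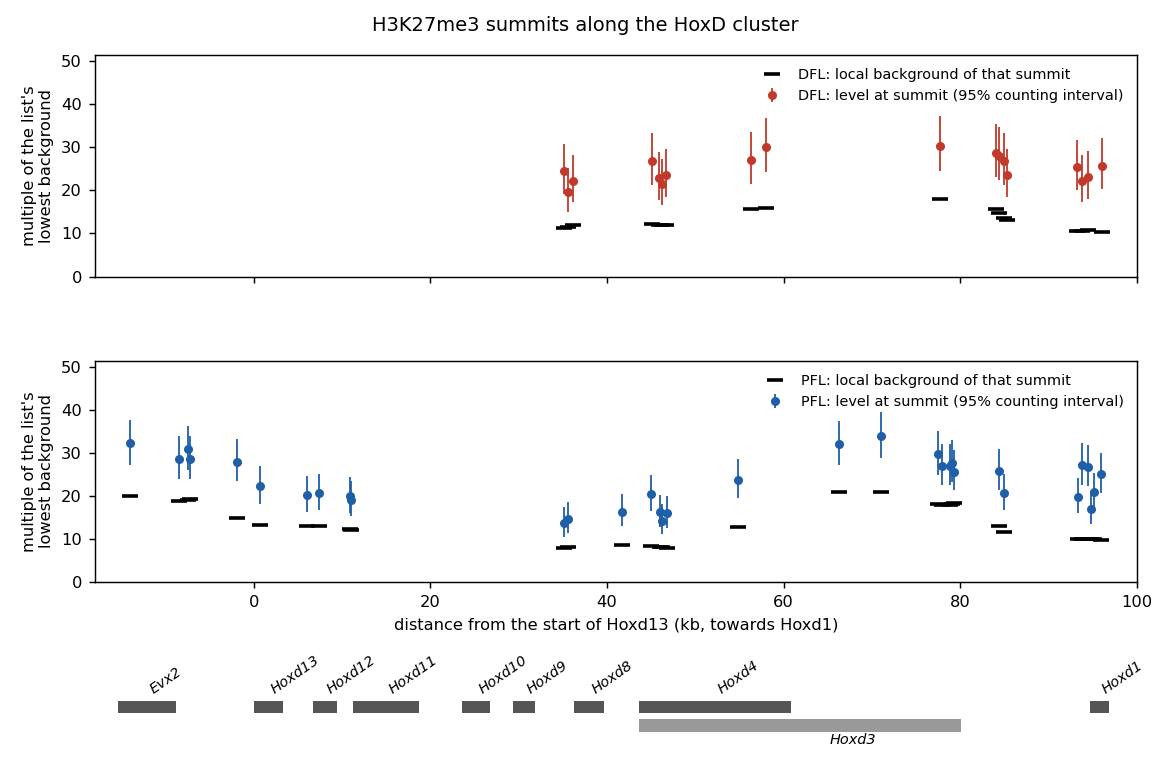
H3K27me3 summits along the HoxD cluster in DFL (top) and PFL (bottom), drawn as for H3K27ac: levels with 95% counting intervals as points and surroundings as dashes. The 18 DFL summits all lie beyond Hoxd9, and PFL has 8 summits from Evx2 to Hoxd12 at levels of 20.2 to 32.2.

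As context within the gene family, the same promoter count was made over 31 genes, Evx1 and all Hoxa, Hoxb and Hoxc genes. H3K27ac lay on 16 of them in DFL and 13 in PFL, and H3K27me3 on 11 and 16. H3K27ac was in DFL alone on 6 and in PFL alone on 3, and H3K27me3 in DFL alone on 2 and in PFL alone on 7.

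CTCF occupied 9 sites in the cluster, and all 9 were called in both pieces, with summits 1 to 16 bp apart. Of these, 5 lay between gene bodies and 4 on them. Sites were numbered from the Evx2 side. Site 1 lay in the UTR of Evx2, sites 2 and 3 between Evx2 and Hoxd13, site 4 between Hoxd13 and Hoxd12, site 5 in an exon of Hoxd11, site 6 just before Hoxd10, site 7 in the coding sequence of Hoxd10, site 8 between Hoxd9 and Hoxd8, and site 9 in an intron shared by Hoxd3 and Hoxd4. From the end of site 9 to the end of Hoxd1, 48.8 kb, no site was listed. The next lay 199 kb beyond Hoxd1, and on the other side the nearest was 17.2 kb from the end of Evx2.

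To see which way the sites face, a weight matrix of 20 bp was learned from the 2000 strongest DFL CTCF regions, with the consensus GCCACNAGGGGGCGCNNNNG. A match above the threshold, on either strand within 50 bp of the summit, was found in 83.5% of DFL regions and 84.1% of PFL regions, against 5.0% and 5.04% of windows moved by 1000 bp. The threshold was set to let 5% of moved windows pass, so the shares of moved windows follow from that choice. The regions used for learning are among the DFL regions counted. In the cluster 6 of 9 sites had a match. They are printed below with the matched bases in capitals and read along the motif, from the GRCm38 (mm10) reference, to show which way each faces.

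CTCF site 1 (chr2:74655515-74655544, minus strand, Evx2 UTR): ctgctGCCGCTAGGGGGCGCCCCGGggggt
CTCF site 2 (chr2:74661989-74662018, minus strand, between Evx2 and Hoxd13): aggaaAACAGATGGGGGCGCCAAATgacag
CTCF site 5 (chr2:74686474-74686503, plus strand, Hoxd11 exon): ctacaGCCACACGAGGGCGCGCTCAtgttc
CTCF site 7 (chr2:74694217-74694246, minus strand, Hoxd10 coding exon): tactgATCTCTAGGCGGCGCTCGCGggtga
CTCF site 8 (chr2:74702389-74702418, plus strand, between Hoxd9 and Hoxd8): atttgGCCACTAGAGAGCGCTGTTGctcca
CTCF site 9 (chr2:74715915-74715944, plus strand, intron of Hoxd3 and Hoxd4): ctttgTCCAGGAGGAGGCGCTGTAGgacaa

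The motifs of sites 1 and 2 point away from the Hoxd genes, towards the landscape that serves the digits. Those of sites 8 and 9 point along the Hoxd genes, towards the landscape that serves the arm. Sites 5 and 7, in the middle, point in opposite directions, site 5 towards Hoxd1 and site 7 towards Evx2. The best matches at sites 3, 4 and 6 scored 4.97, 4.80 and 2.64 on the log2-odds scale, under the threshold of 6.36, so they were given no direction. Site 1 had the highest score, 22.1, and site 2 the lowest of the 6, 9.87.

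Levels at most sites were alike in DFL and PFL. Site 8, the strongest, had 226 fragments in DFL and 219 in PFL, levels of 34.9 and 29.9. Site 3, between Evx2 and Hoxd13, had 195 and 216, a DFL over PFL ratio of 1.02 (0.837 to 1.24). Sites 2 and 6 were the weakest, with levels of 12.1 and 13.3 in DFL against 13.3 and 11.1 in PFL.

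Site 1 on Evx2 was the exception. It had 183 fragments in DFL and 113 in PFL, levels of 28.3 and 15.4, and a ratio of 1.83 (1.44 to 2.34). Of 10 paired CTCF summits in the cluster (site 1 has a second, weaker summit) it was the only 1 at or above 1.5, against 5.34% of 48964 pairs in the genome. None was at or under the inverse of 1.5, as were 1.27% in the genome. The median ratio of all CTCF pairs was 1.10. Ratios at the other 8 sites ran from 0.909 at site 2 to 1.25 at site 4, and only the interval of site 5, with a ratio of 1.23 (1.01 to 1.497), also excludes 1. Site 1 lies inside the stretch where DFL had its highest H3K27ac surroundings, and its CTCF surroundings were 1.44 times higher in DFL. The part of the higher surroundings in the ratio was not tested.

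**Figure D4:**
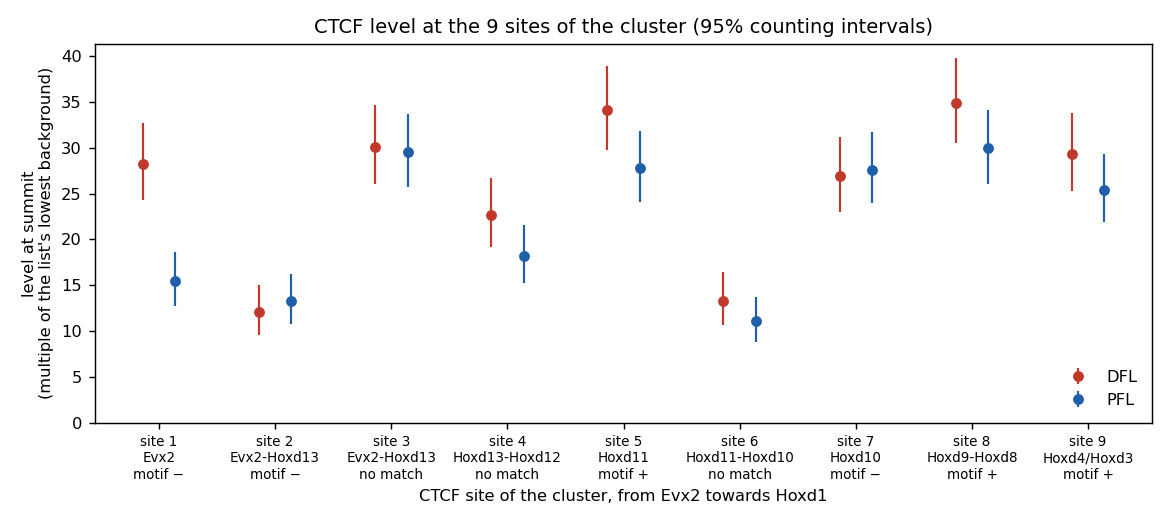
CTCF level at the 9 sites of the HoxD cluster, from the Evx2 side to the Hoxd1 side, in DFL (left point of each pair) and PFL (right point), in units of each list's smallest background, with 95% counting intervals. The labels give the place of the site and the strand of its motif match. At site 1 the levels are 28.3 in DFL and 15.4 in PFL, and at the other 8 sites their intervals overlap.

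Within 2 kb of a start, CTCF regions were counted for Evx2, Hoxd12, Hoxd10 and Hoxd8 in DFL and for the last 3 of these in PFL, 4 and 3 of 10 genes against 32.8% and 32.0% of all genes. The difference at Evx2 is one of region edges: the DFL region of site 2 reached into the window and the PFL region began just outside it.

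Site 8 lay near the place where H3K27me3 regions began in both pieces, 0.756 kb after its summit in DFL and 0.890 kb after it in PFL, where they followed the long gap. The last H3K27ac region before it ended 3.57 kb from the summit in DFL and 2.58 kb from it in PFL. No DFL H3K27me3 region of the cluster lay before site 8, and 1 DFL H3K27ac region lay after it, at the upstream start of Hoxd3. In PFL no H3K27ac region covered site 8 either, and the next began 2.04 kb after it, at Hoxd8.

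HOXA13 and HOXD13, the products of the Hox genes of the digits, had 26 binding sites in the cluster when their lists were joined. Both factors were listed at 16, HOXA13 alone at 5 and HOXD13 alone at 5. Of the 26, 14 lay on gene bodies and 12 between them. Promoter windows held HOXA13 regions for 8 of the 10 genes (not for Hoxd12 or Hoxd1) and HOXD13 regions for 9 (not for Hoxd1), against 31.7% and 28.7% of all genes. In the other Hox clusters and Evx1 the counts were 20 and 20 of 31. The libraries came from whole forelimb buds at an earlier stage than the histone marks, so they do not say in which piece the factors were bound.

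The strongest site of the cluster for both factors was in the intron of Hoxd9, 1244 bp from its start (site 17). HOXA13 had 258 fragments there, a level of 42.3, and HOXD13 had 261, a level of 33.9. Among all summits, 528 of 74662 in the HOXA13 list and 345 of 61392 in the HOXD13 list were as high. The next was at the upstream start of Hoxd3 (site 20), 37 bp from it, with 170 fragments for HOXA13 and 211 for HOXD13, levels of 27.9 and 27.4. By fold over its surroundings this was the strongest of the cluster, 9.06 for HOXA13 and 10.8 for HOXD13. It is the place where H3K27ac was 36 fragments in DFL and 149 in PFL.

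Sites of middling strength lay just before Hoxd9 (site 16, 122 and 106 fragments), at the upstream basic start of Hoxd4 (site 21, 117 and 101) and just upstream of Evx2 (site 2, 95 and 91). The third strongest HOXD13 summit was in the intron of Hoxd11 (site 11), with 49 fragments for HOXA13 and 147 for HOXD13. On Hoxd13 itself HOXA13 had 48 fragments and HOXD13 66 (site 5). HOXD13 alone was listed 234 bp upstream of the Hoxd13 start, with 50 fragments. Hoxd12, Hoxd10 and Hoxd1 had no region of either factor on their bodies.

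Levels of both factors were close at most joint sites. The median HOXA13 over HOXD13 ratio of 44276 paired summits in the genome was 1.299, with 5% of pairs under 0.789 and 5% over 2.20. A single joint site was outside that range, site 11 on Hoxd11, 966 bp from its start. The ratio there was 0.421 (0.298 to 0.585). At the other 15 joint sites it was 0.890 to 1.79. The lowest of these was at site 26, whose summits lay 255 bp apart, beyond the 250 bp allowed for the pairs of the genome.

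For the HOX13 motif a matrix of 9 bp was learned from the 2000 strongest HOXD13 regions, with the consensus CCNATAAAA. On either strand within 50 bp of the summit a match was found in 25.3% of HOXA13 and 26.97% of HOXD13 regions, against 4.92% and 4.88% of windows moved by 1000 bp. Here too the threshold was set to let 5% of moved windows pass, and the regions used for learning are among the HOXD13 regions counted. In the cluster 9 of 26 sites had a match, 8 of them joint sites. These are the matches, in capitals and read along the motif, with flanks to place them.

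HOX13 site 11 (chr2:74683237-74683265, minus strand, Hoxd11 intron): tataaagtagCACATAAAAcggcgcaagc
HOX13 site 14 (chr2:74690253-74690281, plus strand, between Hoxd11 and Hoxd10): gttcaagtttCTCATAAAAttctgagttt
HOX13 site 16 (chr2:74697341-74697369, plus strand, before Hoxd9): tcaaatacacCTCATAAAAtttttattga
HOX13 site 17 (chr2:74698953-74698981, plus strand, Hoxd9 intron): gcaacacgtaTCCATAAAAagcttcccat
HOX13 site 19 (chr2:74704776-74704804, minus strand, Hoxd8 intron): ttaaagggggCCCATAAAGccgcactgcc
HOX13 site 21 (chr2:74721988-74722016, minus strand, Hoxd4 UTR): caactctcaaGCCATAAAAcaaagtttat
HOX13 site 22 (chr2:74727837-74727865, minus strand, Hoxd4 intron): tgctccctcaGCTATAAAAatttatggag
HOX13 site 23 (chr2:74733596-74733624, plus strand, Hoxd3 intron): ataatagaagGCTATAAAAtcgagttgaa
HOX13 site 25 (chr2:74747311-74747339, plus strand, Hoxd3 UTR): acctgacagtGCCATAAACtgcggaccga

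At the strongest site, in Hoxd9, the match lay 4 bp from the HOXA13 summit, and at the upstream Hoxd4 start 2 bp. Sites 14 and 16, on both sides of Hoxd10, held the same 9 bases. The site at the upstream start of Hoxd3 held no match, although it was the strongest by fold, and no match says only that these letters were not within 50 bp of its summit. The 9 matches were on Hoxd11 and beyond. On the digit side, from Evx2 to Hoxd12, 8 sites held none.

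H3K27ac regions of DFL overlapped 9 of the 26 sites and those of PFL 9, and 15 sites lay in no H3K27ac region of either piece. Of 76732 HOX13 sites of the genome, 28.3% overlapped a DFL and 26.8% a PFL H3K27ac region, and 67.3% neither. H3K27me3 regions overlapped 1 of the 26 sites in DFL and 3 in PFL, against 1.22% and 2.35% of sites in the genome. The DFL site was site 19 on Hoxd8, where PFL had an H3K27ac region.

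HOX13 regions overlapped CTCF at 3 of the 9 CTCF sites, against 12.3% of 58900 CTCF sites of the genome. At CTCF site 2, between Evx2 and Hoxd13, both factors were listed, HOXA13 65 bp from the CTCF summit with 35 fragments and HOXD13 5 bp from it with 38. At CTCF site 6, before Hoxd10, HOXA13 was listed 162 bp away with 46 fragments and HOXD13 98 bp away with 40. At CTCF site 8, between Hoxd9 and Hoxd8, HOXA13 alone was listed, 231 bp away, with 61 fragments. The calls were weak. Their −log10 q was 2.55 for HOXA13 and 3.07 for HOXD13 at CTCF site 2, and 6.60 and 3.60 at CTCF site 6. At CTCF site 8 it was 4.93, so only the HOXA13 call at CTCF site 6 reached 5. None of the 3 sites had a HOX13 motif match. Sites 2 and 6 were also the CTCF sites with the lowest CTCF levels.

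**Figure D5:**
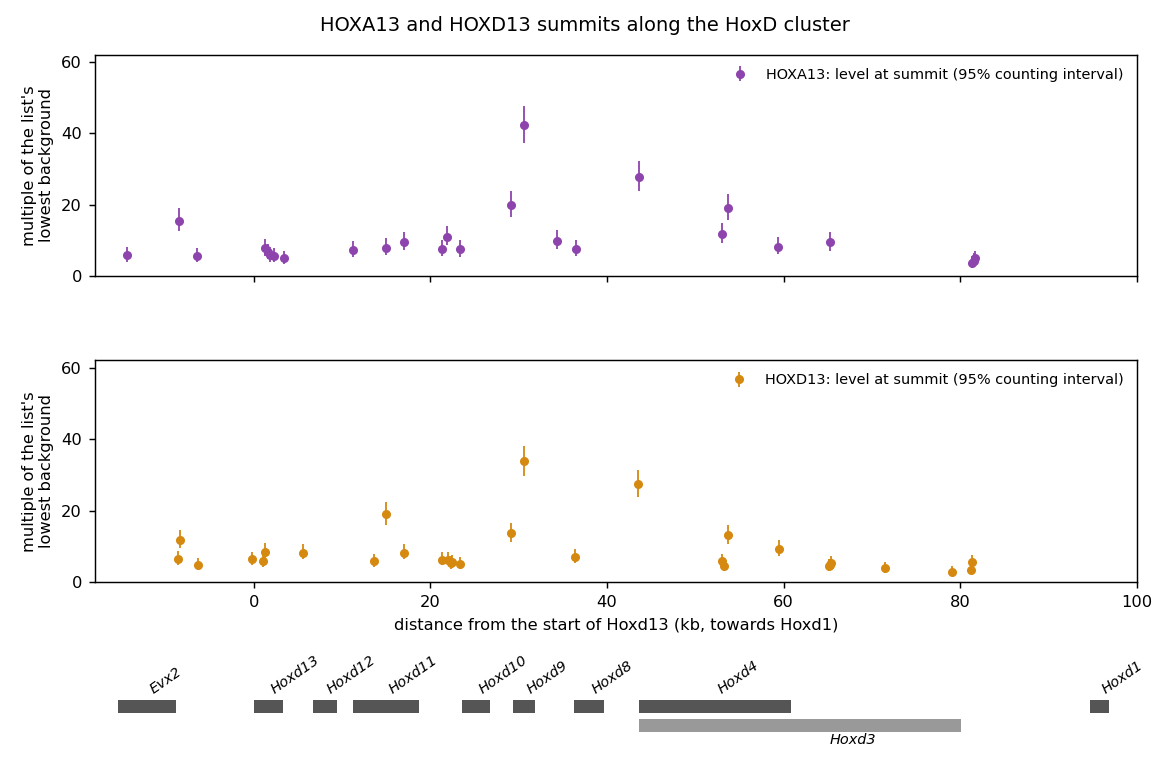
HOXA13 (top) and HOXD13 (bottom) summits along the HoxD cluster in whole forelimb buds, by distance from the start of Hoxd13 in kb, with levels in units of each list's smallest background and 95% counting intervals. The tallest points are in Hoxd9, 42.3 for HOXA13 and 33.9 for HOXD13, and at the upstream start of Hoxd3, 27.9 and 27.4.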

How the data were processed

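The authors trimmed reads with cutadapt, aligned them to mm10 with Bowtie and filtered them with SAMtools. Peaks were called per library with MACS2, with no input control. In the single-read libraries 1 read per position and strand was kept. The H3K27me3 libraries were taken to have had these steps, because the study lists them as single-read ChIP but shows commands for another library. Each deposited line holds a fold (a ratio of summit pileup to local background), its −log10 p, a −log10 q score and the summit offset in bp. HOXA13 and HOXD13 were read as paired ends and the others as single reads.

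Lines on autosomes and X were kept and overlapping intervals merged. Whole-number pileups were solved from fold and −log10 p (tolerance 0.001 in −log10 p) for 99.985% or more of the lines of each list. Read totals are not in the lists. The lowest background, which grows with depth, set the scale of each library. The solver, the pairing and the motif search were checked on simulated data. Coordinates are 1-based, from the GRCm38 reference (mm10) and GENCODE vM21. Of 21755 protein-coding genes, 54 of repeated symbol were left out. Python 3.11.15, numpy 2.4.6, pandas 2.3.3, scipy 1.17.1 and matplotlib 3.10.9 were used. With 1 library per group nothing was tested, and folds of 1.5 or its inverse were counted against the same share in the genome.

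All 10 genes are named, with their flanking genes only for place, and the other Hox genes and Evx1 as counts. The members, lists and choices were made with earlier results of these data known. The alternatives were other promoter windows, peak thresholds, list sizes, scalings, pairing distances and overlap rules.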

Additional observations from a re-analysis of the deposited data

How the results depend on the processing

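Of 78 alternative values, 63 stayed within 1.5 times the original. Among them are the H3K27ac ratios of all 3 segments, the H3K27me3 ratios, the CTCF and HOX13 site counts, and the promoter counts under other windows and list sizes. Some of these still changed. With lists of equal size, H3K27me3 promoters numbered 4 in DFL and 5 in PFL. With −log10 q of at least 5, HOXA13 had 15 regions in the cluster and HOXD13 14, of which 12 were shared with HOXA13. The exceptions to that limit are covered lengths and calls limited to a fold of at least 2, which by construction drop summits on high surroundings. At a fold of at least 2, H3K27ac promoters numbered 2 in DFL and 5 in PFL, and H3K27me3 promoters 3 in DFL and 2 in PFL, which turns the order of 4 and 7. The DFL minus PFL length covered by H3K27ac from Evx2 to Hoxd12, 3.34 kb, reversed to -5.48 kb, the Hoxd11 to Hoxd8 difference moved to -0.996 kb from -3.53 kb, and the H3K27me3 difference from Evx2 to Hoxd12 moved to 0 kb from -2.21 kb. With −log10 q of at least 5 the H3K27ac differences were 2.21, -1.10 and -0.418 kb from Evx2 towards Hoxd1, and the H3K27me3 differences -1.20 kb at Evx2 to Hoxd12 and -3.08 kb at Hoxd4 to Hoxd1. With lists of equal size the H3K27ac difference at Hoxd4 to Hoxd1 was -0.418 kb, and the H3K27me3 differences were -1.20, 1.24 and -0.173 kb. With median scaling the pairs at least 1.5 times higher in DFL numbered 13 for H3K27ac, 4 for H3K27me3 and 1 for CTCF, against 12, 2 and 1, and those at least as much lower 2 for H3K27ac, against 4. The causes of the other moves were not tested.

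No paired analysis was possible because every group had 1 library, and for the same reason no library was left out in turn. Levels near the highest pileup of the single-read lists are compressed, and the shallow DFL H3K27me3 list limits what its missing regions show.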
